A study of Arabidopsis thaliana with 18 samples.

Results

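The plastid genome of Arabidopsis thaliana encodes core parts of the photosynthetic machinery, and the transcripts of 33 of its genes are described here. They comprise 5 genes of photosystem I, 15 named for photosystem II, 6 of the cytochrome b6f complex, 6 of the chloroplast ATP synthase, and rbcL, which encodes the large subunit of the carbon-fixing enzyme Rubisco. The members were chosen by name, as the plastid genes of these complexes to which the platform's annotation assigns a probe set of their own. All 33 had exactly 1 probe set each, so they make up 33 of the 22746 probe sets tested. A further 36 plastid-encoded genes with a probe set were set beside them. No probe set was removed for a low signal, so every member entered every test.

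Rosettes of the accession Col-0, aged 20 days and raised in continuous light, were exposed to sound of 250, 500, 1000, 2000 or 3000 Hz at 80 dB for 1 h and harvested when the exposure ended. Control plants stood in a silent chamber for the same 1 h. Each of the 6 groups has 3 Affymetrix ATH1 arrays, which the labels call biological replicates without saying how many plants each holds or whether they were raised apart, so the p-values measure the spread between these samples. Values are log2 signals of a probe set, and a difference of 1 is a 2-fold change. In RNA of a whole rosette, fewer plastids or cells and less RNA in each of them cannot be told apart.

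Photosystem II, the cytochrome b6f complex and photosystem I pass electrons along the thylakoid membrane, and the ATP synthase uses the proton gradient that this builds. The plastid encodes the reaction centres and other core subunits, and the nucleus most of the rest. Many plastid genes lie in clusters that are transcribed together by a bacterial-type and a phage-type RNA polymerase, and the levels of their RNAs also depend on processing and stability. Plastid mRNAs lack the stable poly(A) tails of nuclear mRNAs.

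Several arrays stood apart before any comparison was made. Control replicate 2 lay above both other controls in 21 of the 33 members, 250 Hz replicate 3 above both others of its group in 27, and 3000 Hz replicate 2 below both others in 32. The median deviation of the 33 members from their means over the 18 arrays was -0.158 on 250 Hz replicate 3, and -0.478 and -0.524 on replicates 1 and 2. Poly-A spike probe sets read bacterial transcripts added before labelling, and those named TrpnX were left out. The 24 that were used averaged 5.987 to 6.509 on the 6 arrays of 2000 and 3000 Hz and 5.374 to 5.591 on the other 12. For any comparison of 2000 or 3000 Hz with another group, the frequency and this spike set therefore cannot be told apart, whereas 3000 against 2000 Hz, and 250, 500 and 1000 Hz with the control, lie each within a set. One measure of RNA integrity was the 3' minus the 5' signal of the actin control probe sets. It was 1.747 ± 0.086 at 2000 Hz and 1.613 ± 0.055 at 3000 Hz, against 1.94 ± 0.017 in the controls (SD, n = 3). At 250, 500 and 1000 Hz it was 1.963 ± 0.147, 2.063 ± 0.29 and 2.007 ± 0.059. The 6 arrays of 2000 and 3000 Hz ranged from 1.56 to 1.84, and the other 12 from 1.74 to 2.3. The same measure on the GAPDH control probe sets was 0.027 ± 0.078 at 2000 Hz and -0.05 ± 0.128 at 3000 Hz, against 0.013 ± 0.136 in the controls, within the spread of the arrays. As for the tissue, the signal of the leaf gene RCA (Rubisco activase) was 14.09 to 14.32 on all arrays, near the highest signal of each array (14.53 to 14.71). Of the other cell type markers measured, the root hair expansin EXPA7 (5.08 to 5.46) and a pollen LAT52-like gene (4.59 to 5.15) stayed low, and the root gene PYK10 ranged from 4.14 to 8.67, highest on control replicate 1. PYK10 also read 4.14, 5.41 and 4.94 at 2000 Hz and 7.11, 7.11 and 6.98 at 3000 Hz. That difference was 2.24 (adjusted p = 0.119 in limma). The guard cell gene FAMA ranged from 6.45 to 7.61, and no phloem marker was measured. The part of any of these values in the results below was not tested.

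**Figure D1:**
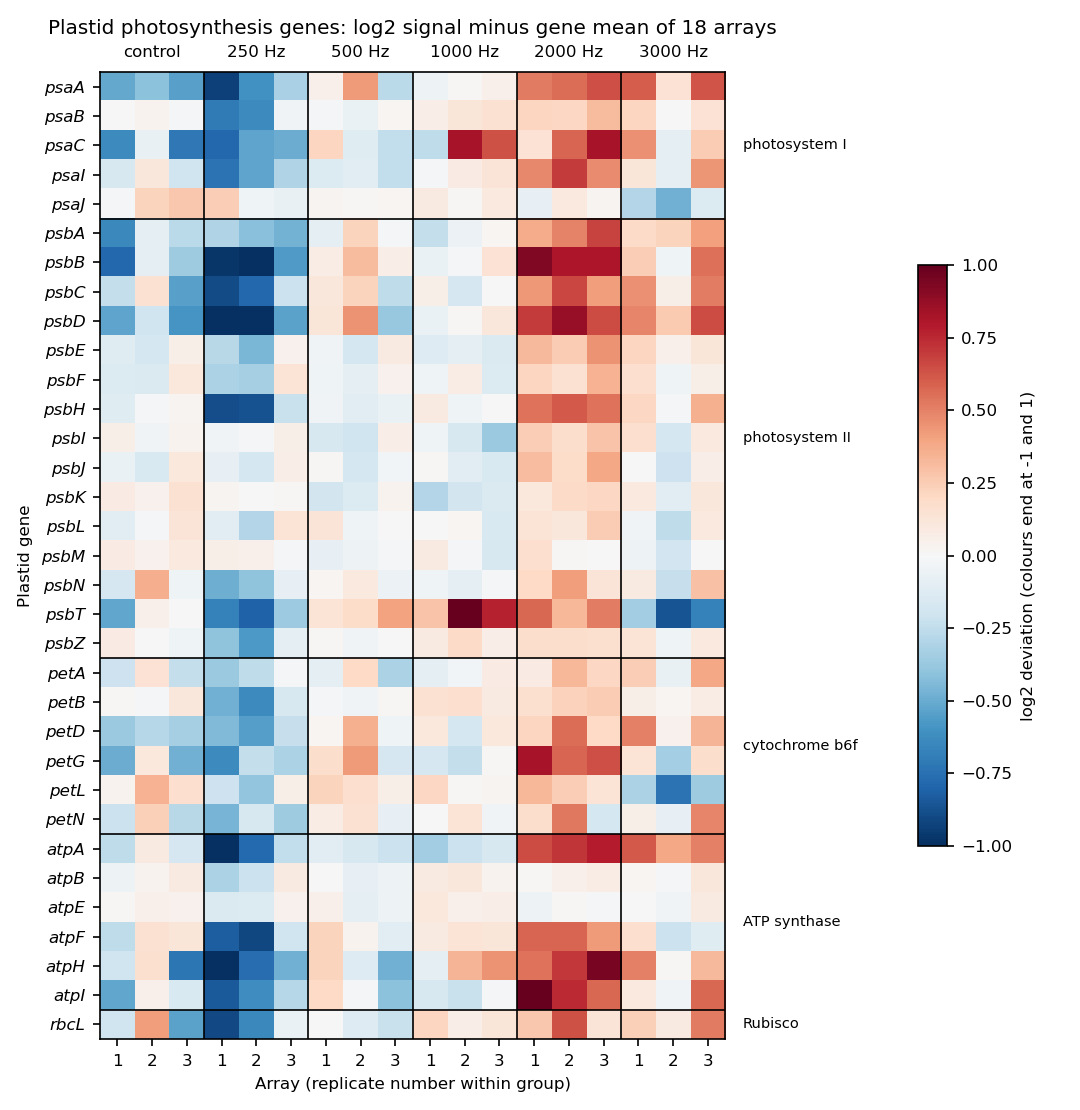
Log2 signal of the 33 plastid genes (rows, grouped by complex) on the 18 arrays (columns, 3 per group), as the deviation from each gene's mean over all arrays, with colours ending at -1 and 1. Most rows are reddest at 2000 Hz, where 29 of 33 members had their highest mean among the frequencies, and bluest at 250 Hz, where 26 had their lowest.

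Across the 5 frequencies, the plastid photosynthesis genes were lowest at 250 Hz and highest at 2000 Hz. By group mean, 29 of the 33 members were highest at 2000 Hz and the other 4 (psaJ, psbT, atpB and atpE) at 1000 Hz. The lowest mean lay at 250 Hz for 26 members, at 1000 Hz for psbI, psbJ and psbK, and at 3000 Hz for psaJ, psbM, psbT and petL. Of the 36 other plastid genes 21 were highest at 2000 Hz and 33 lowest at 250 Hz, and among all probe sets 18.1% and 25.4%. In limma's moderated F test across the frequencies, 22 of the 33 members (66.7%) differed at an adjusted p under 0.05, the threshold used throughout, against 15.6% of all probe sets tested. By complex these were 4 of 5 members in photosystem I, 10 of 15 in photosystem II, 4 of 6 in cytochrome b6f, 4 of 6 in the ATP synthase, and not rbcL (adjusted p = 0.0501). Of the 36 other plastid genes 22 differed (61.1%), so the photosynthesis genes were close to the rest of the plastid genome in this share. The smallest adjusted p belonged to atpA (0.00188), psbB (0.00196) and psbD (0.00297).

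The comparison with silence asks which transcripts differ after sound of each frequency. At 2000 Hz, 11 of the 33 members rose, against 1.62% of all probe sets, and 0 fell, against 1.27%. Of the 36 other plastid genes 9 rose (25%). The members that rose were psaA and psaI of photosystem I, psbA, psbB, psbD and psbH of photosystem II, petD and petG of cytochrome b6f, and atpA, atpH and atpI of the ATP synthase. Of these, petD, petG and atpI are dim, with a mean signal under the median over all probe sets. The log2 difference was positive in 30 of 33 members, with a median of 0.42 against -0.02 over all probe sets and 0.27 over the other plastid genes. The 3 arrays at 2000 Hz lay above all 3 control arrays in 22 members, against 7.5% of all probe sets. The spike mean was 6.343 ± 0.157 at 2000 Hz, against 5.457 ± 0.042 in the controls (SD, n = 3). In a fit of these 6 arrays alone 0 members passed, as did 0 of all probe sets in limma, although 21 members and 2586 probe sets (11.4%) had an unadjusted p under 0.05. The count of 11 became 6 and 4 without control replicates 1 and 3, and 16 without control replicate 2. It was 4, 7 and 5 without 2000 Hz replicates 1, 2 and 3. With any of these 6 arrays left out, psaA, psbA, psbB and psbD passed. Arrays of the other groups, which also enter the spread, were not left out for this comparison.

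At 3000 Hz, 6 members were higher than in silence, against 2.84% of all probe sets, and 2 were lower, against 3.76%. Of the other plastid genes 6 were higher and 0 lower. The higher members were psaA, psbA, psbB, psbD, petD and atpA, and the lower were psaJ and petL. The median difference was 0.21, against 0.00 over all probe sets and 0.24 over the other plastid genes. The control arrays are those of the 2000 Hz comparison, so the values of both are not independent. All 3 arrays at 3000 Hz lay above the controls in 6 members (10.1% of all probe sets) and below them in 3 (12.6%). No member passed in a fit of the 6 arrays alone, nor did any other probe set (10 members and 3719 probe sets, 16.4%, unadjusted). The count of 8, against 6.6% of all probe sets, became 0 without control replicate 3, and 2, 3 and 3 without 3000 Hz replicates 1, 2 and 3.

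At the 3 lower frequencies no member differed from silence in limma. At 250 Hz all 33 differences were negative, with a median of -0.24 against -0.02 over all probe sets, and the other plastid genes had 35 of 36 negative and a median of -0.34. Yet 0 members passed, against 0.044% of all probe sets. An unadjusted p under 0.05 was found in 14 members (42.4%), 17 other plastid genes and 15.8% of all probe sets. The 3 arrays at 250 Hz lay below all controls in 6 members, against 7.37% of all probe sets, and above them in none, against 6.05%. At 500 Hz the median was 0.03, with 0 members called against 8.91% of all probe sets, and 7 members (21.2%) with an unadjusted p under 0.05 against 26.6% of all probe sets. At 1000 Hz the median was 0.10, with 0 members called against 0% of all probe sets, and 7 (21.2%) unadjusted against 15.5%. Each count depended on single arrays. Without control replicate 2 it was 3 at 250 Hz, 5 at 500 Hz and 3 at 1000 Hz. It was 6 at 250 Hz without 250 Hz replicate 3, and 2 at 500 Hz without 500 Hz replicate 3. The shares of all probe sets in these refits are not given here, so how far the counts stand from them cannot be read.

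**Figure D2:**
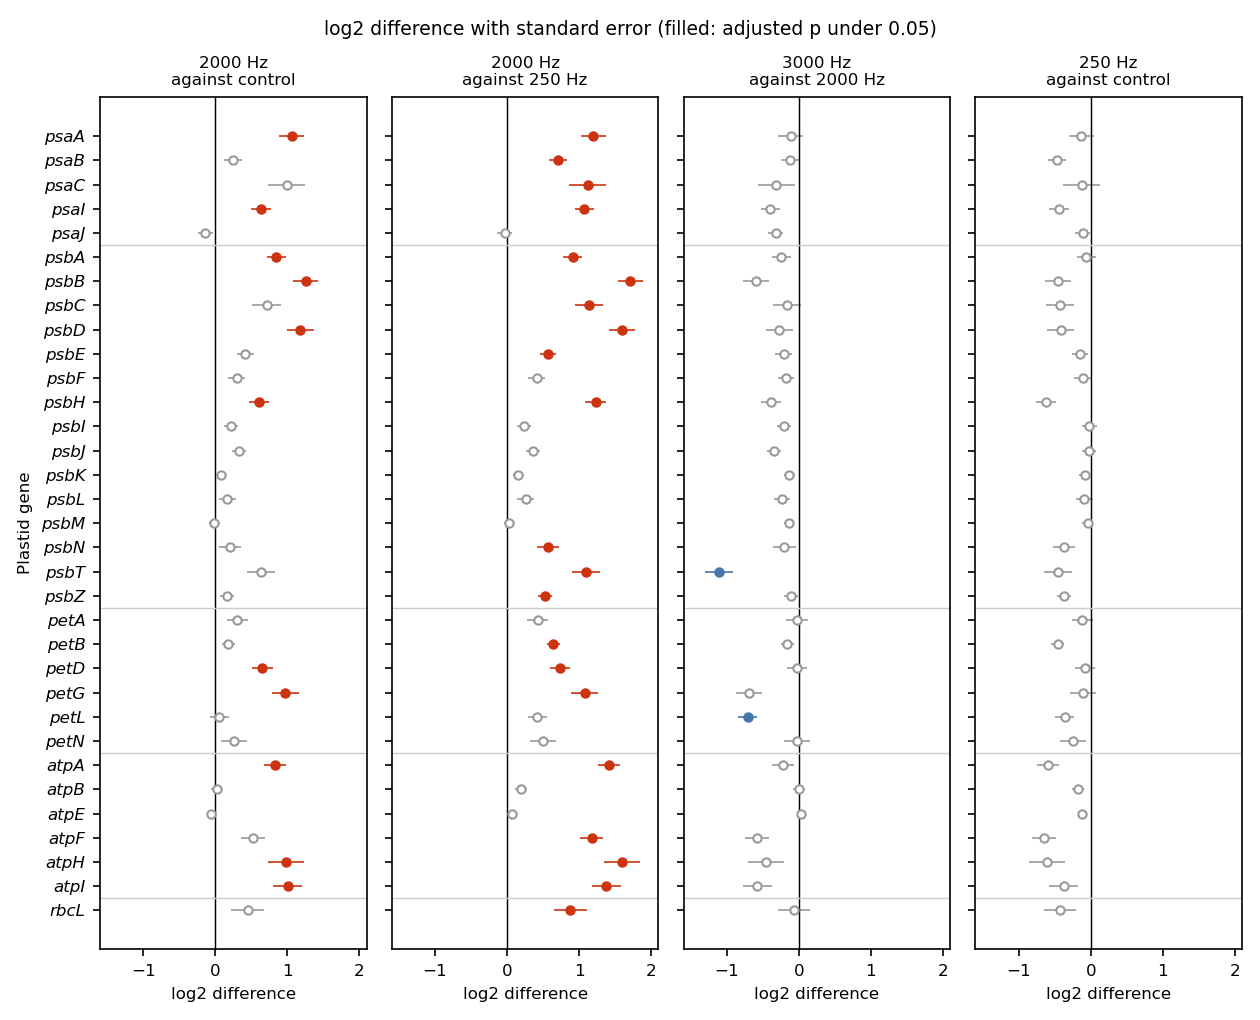
Log2 difference of each plastid gene with its standard error from the fit of all 18 arrays, in 4 comparisons of 3 arrays with 3 arrays. Filled points passed an adjusted p of 0.05 (red higher, blue lower). At 2000 Hz against 250 Hz 21 members passed, all to the right of 0, and at 250 Hz against control all 33 points lie left of 0 and none passed.

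The log2 differences between frequencies do not contain the control arrays, but their tests take the spread from all 18. At 2000 against 250 Hz, 21 members rose, against 2.1% of all probe sets, and 0 fell, against 1.77%. The difference was positive in 32 of 33 members, with a median of 0.70 against 0.00 over all probe sets and 0.70 over the other plastid genes. The arrays did not overlap in 27 members, all higher at 2000 Hz, against 13% of all probe sets. Of the other plastid genes 22 of 36 rose. The members that passed were 4 of 5 in photosystem I, 9 of 15 in photosystem II, 3 of 6 in cytochrome b6f, 4 of 6 in the ATP synthase and rbcL. In a fit of the 6 arrays alone the count was 15, with 509 of all 22746 probe sets called. The count was 11 without 250 Hz replicate 1. With any of these 6 arrays left out, 11 named genes passed: psaA, psaI, psbA, psbB, psbD, psbH, petB, atpA, atpF, atpH and atpI.

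At 2000 against 500 Hz 5 members rose (psaI, psbB, psbH, atpA and atpI), against 1.87% of all probe sets, and 0 fell, against 1.79%, with a median of 0.34. At 2000 against 1000 Hz 10 rose, against 1.58% of all probe sets, and 0 fell, against 1.59%, with a median of 0.31. They were psbA, psbB, psbD, psbE, psbH, psbI, psbK, petG, atpA and atpI. The first count became 1 without 500 Hz replicates 2 or 3 or 2000 Hz replicate 2 and 2 without 2000 Hz replicate 1, and only atpA passed with any of these 6 arrays left out. The second became 0, 1 and 4 without 1000 Hz replicates 1, 2 and 3, and 1 without 2000 Hz replicates 1 or 3.

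Within the lower spike set, 7 members were higher at 500 than at 250 Hz (psaA, psbB, psbD, psbH, psbT, petB and atpF), against 1.21% of all probe sets, and 0 were lower, against 2.19%. In a fit of these 6 arrays alone the count was 2, with 601 of all 22746 probe sets called. At 1000 against 250 Hz, 2 were higher (psbT and petB), against 0.0396% of all probe sets, and 0 were lower, against 0.202%. A fit of the 6 arrays of 1000 and 250 Hz alone called 3 members and 236 of all probe sets. In each of both comparisons 1 of the 36 other plastid genes was higher. The medians of the members were 0.41 and 0.42, against 0.31 and 0.47 over the other plastid genes. At 500 against 250 Hz 20 members had an unadjusted p under 0.05 (22.3% of all probe sets), and at 1000 against 250 Hz 21 (15.7%). The spike mean was 5.525 ± 0.043 at 500 Hz and 5.526 ± 0.058 at 1000 Hz, against 5.416 ± 0.047 at 250 Hz (SD, n = 3). Both counts were 12 without 250 Hz replicate 3, and 0 without either of the other 250 Hz arrays. Without 500 Hz replicates 1, 2 and 3 the first was 1, 0 and 4, without 1000 Hz replicates 1 and 2 the second was 1 and 0, and a fit of the 12 arrays of this spike set gave 1 and 0.

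Within the upper spike set, 3000 against 2000 Hz, 2 members were lower, psbT and petL, against 0.827% of all probe sets, and 0 were higher, against 2.34%. The difference was negative in 32 of 33 members, with a median of -0.21 against 0.00 over all probe sets and -0.14 over the other plastid genes. All 3 arrays at 3000 Hz lay below those at 2000 Hz in 16 members, against 10.4% of all probe sets. Without 3000 Hz replicate 2, the low array of its group, the median was -0.15. The count was 0 without it, and also without 2000 Hz replicates 1 or 3 or 3000 Hz replicate 3. The comparison of 3000 with 250 Hz crosses the spike sets, so frequency and spike set cannot be told apart in it. There 16 members were higher at 3000 Hz, against 4.25% of all probe sets, and 1, psaJ, was lower, against 4.52%. Of the 36 other plastid genes 22 were higher (61.1%) and 0 lower. The members' count of 17, against 8.77% of all probe sets, was 9 and 11 without 250 Hz replicates 1 and 2 and 11 without 3000 Hz replicate 1.

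**Figure D3:**
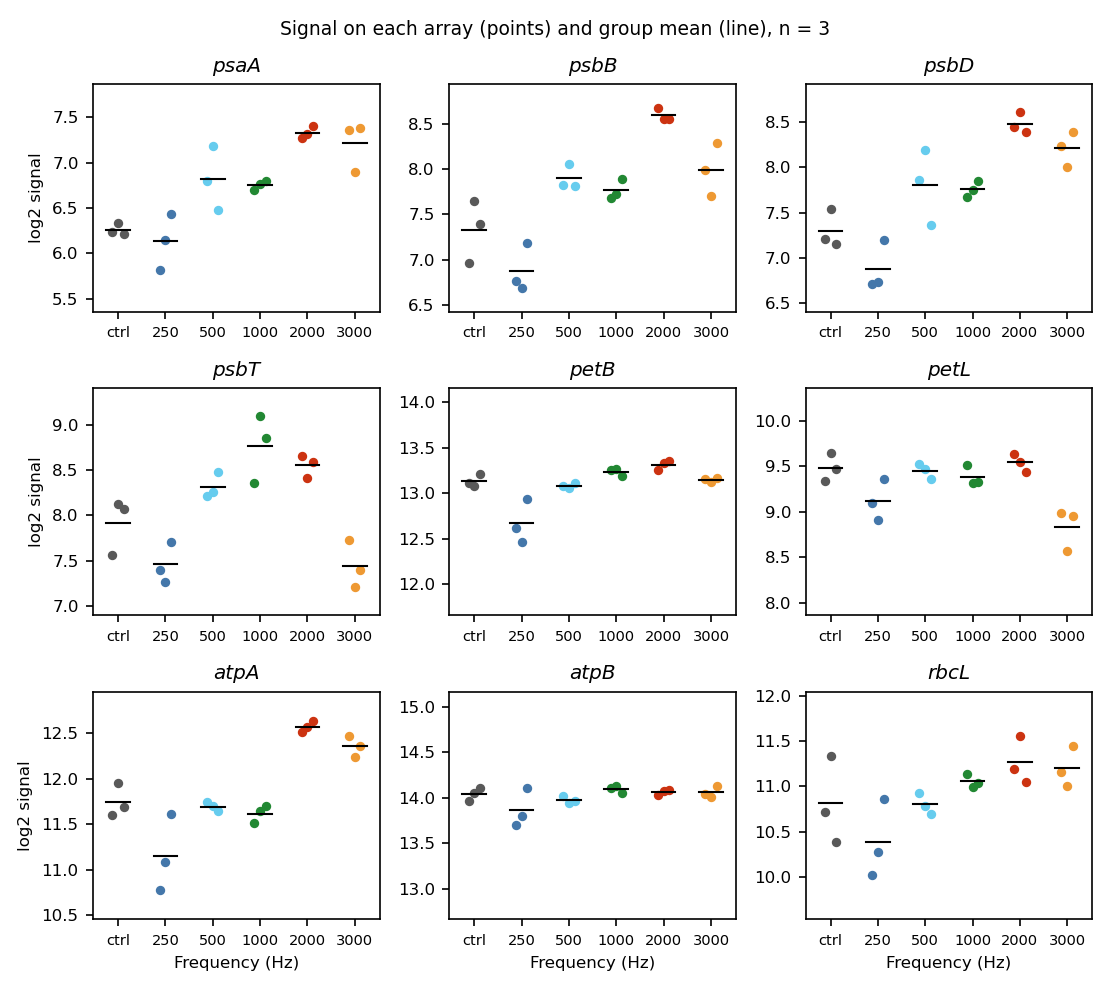
Log2 signal of 9 plastid genes on each of the 18 arrays (points) with the mean of each group (line, n = 3), by frequency on the horizontal axis with the control (ctrl) at the left, each panel on its own vertical range of equal height. The psbB and atpA arrays at 2000 Hz all lie above every control array, the psbT and petL arrays at 3000 Hz all lie below those at 2000 Hz, and the atpB arrays span only 13.70 to 14.13.

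In photosystem II, 4 of 15 members (26.7%) rose at 2000 Hz against control, where 1.62% of all probe sets and 25% of the other plastid genes did: the reaction centre genes psbA and psbD, the inner antenna gene psbB and the small subunit gene psbH. The gene psbB (ArthCp049) encodes the antenna protein CP47. Its log2 signals were 6.96, 7.65 and 7.39 on the control arrays, 6.77, 6.69 and 7.18 at 250 Hz, 7.82, 8.06 and 7.81 at 500 Hz, 7.68, 7.72 and 7.89 at 1000 Hz, 8.67, 8.55 and 8.55 at 2000 Hz, and 7.99, 7.70 and 8.29 at 3000 Hz. All 3 arrays at 2000 Hz lay above the other 15, and 250 Hz replicates 1 and 2 were the lowest. The difference was 1.26 ± 0.18 (SE of the fit of all 18 arrays, n = 3 per group) at 2000 Hz against control, adjusted p = 0.00564. Against 250 Hz it was 1.71 ± 0.18, adjusted p = 0.000579, a 3.27-fold higher signal. At 500 against 250 Hz it was 1.02 ± 0.18 (adjusted p = 0.0122).

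The reaction centre of photosystem II is built from D1 (psbA) and D2 (psbD). The log2 signals of psbD (ArthCp017) were 7.21, 7.54 and 7.15 on the control arrays, 6.71, 6.74 and 7.20 at 250 Hz, 7.86, 8.19 and 7.36 at 500 Hz, 7.67, 7.75 and 7.85 at 1000 Hz, 8.44, 8.61 and 8.39 at 2000 Hz, and 8.23, 8.0 and 8.39 at 3000 Hz. Every array at 2000 and 3000 Hz lay above every control and 250 Hz array, while 500 Hz replicate 2 reached the 3000 Hz range. It rose by 1.18 ± 0.19 at 2000 Hz against control (adjusted p = 0.00886) and by 0.91 ± 0.19 at 3000 Hz (adjusted p = 0.0153). For psbA (ArthCp002) the signals were 10.33, 10.88 and 10.70 on the control arrays, 10.67, 10.55 and 10.50 at 250 Hz, 10.88, 11.19 and 10.96 at 500 Hz, 10.73, 10.91 and 10.99 at 1000 Hz, 11.34, 11.47 and 11.65 at 2000 Hz, and 11.16, 11.19 and 11.38 at 3000 Hz. The 2000 Hz arrays exceeded all control, 250, 500 and 1000 Hz arrays, and 3000 Hz replicate 3 lay above the lowest of them. It rose by 0.85 ± 0.13 at 2000 Hz (adjusted p = 0.00879) and by 0.61 ± 0.13 at 3000 Hz (adjusted p = 0.0192) against control. The second antenna gene, psbC (CP43), had 0.71 ± 0.20 at 2000 Hz against control (adjusted p = 0.0603), and rose by 1.14 ± 0.20 over 250 Hz (adjusted p = 0.00768).

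The small subunit genes of photosystem II differed among themselves. The signals of psbH (ArthCp052), a small phosphoprotein, were 9.49, 9.59 and 9.64 on the control arrays, 8.73, 8.74 and 9.39 at 250 Hz, 9.58, 9.51 and 9.55 at 500 Hz, 9.70, 9.57 and 9.61 at 1000 Hz, 10.16, 10.23 and 10.16 at 2000 Hz, and 9.82, 9.60 and 9.97 at 3000 Hz. The 2000 Hz arrays were the highest, with no other array above 9.97. It rose by 0.61 ± 0.14 at 2000 Hz against control (adjusted p = 0.0335), and at 250 Hz it had -0.62 ± 0.14 (adjusted p = 0.0813), with all 3 arrays below the controls. The gene psbT (ArthCp050), another small subunit, had 7.56, 8.13 and 8.07 on the control arrays, 7.40, 7.27 and 7.71 at 250 Hz, 8.21, 8.26 and 8.48 at 500 Hz, 8.36, 9.09 and 8.85 at 1000 Hz, 8.65, 8.41 and 8.59 at 2000 Hz, and 7.73, 7.21 and 7.40 at 3000 Hz. Its 3000 Hz arrays overlapped those of 250 Hz, and its 1000 Hz arrays included the highest of the 18. At 3000 against 2000 Hz it fell, with a difference of -1.10 ± 0.19 (adjusted p = 0.0163), at 1000 against 250 Hz it rose by 1.31 ± 0.19 (adjusted p = 0.0175), and no comparison with the control passed.

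The signals of psbK (ArthCp005), also for a small subunit, were 13.13, 13.09 and 13.20 on the control arrays, 13.07, 13.04 and 13.06 at 250 Hz, 12.86, 12.91 and 13.08 at 500 Hz, 12.75, 12.86 and 12.90 at 1000 Hz, 13.15, 13.24 and 13.25 at 2000 Hz, and 13.14, 12.93 and 13.16 at 3000 Hz. Its 500 and 1000 Hz arrays lay below all controls and its 2000 Hz arrays overlapped with them. The difference was -0.30 ± 0.08 at 1000 Hz against control (adjusted p = 0.132), and at 2000 against 1000 Hz it rose by 0.38 ± 0.08 (adjusted p = 0.0203). The cytochrome b559 genes psbE and psbF had 0.57 ± 0.11 (adjusted p = 0.0135) and 0.41 ± 0.12 (adjusted p = 0.0573) at 2000 against 250 Hz, so only psbE passed there. Among the small subunits psbI, psbJ, psbL and psbM the same difference ran from 0.03 (psbM) to 0.36 (psbJ), and none passed, whereas psbZ rose by 0.53 ± 0.10 (adjusted p = 0.00972). The gene psbN, which in tobacco acts in the assembly of photosystem II and is not a subunit of it, rose by 0.57 ± 0.15 (adjusted p = 0.0481).

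In photosystem I, 2 of 5 members rose at 2000 Hz against control (1.62% of all probe sets), the reaction centre gene psaA and the small subunit gene psaI, and the small subunit gene psaJ fell at 3000 Hz. The log2 signals of psaA (ArthCp022) were 6.24, 6.34 and 6.21 on the control arrays, 5.82, 6.15 and 6.43 at 250 Hz, 6.80, 7.18 and 6.48 at 500 Hz, 6.70, 6.76 and 6.80 at 1000 Hz, 7.27, 7.31 and 7.40 at 2000 Hz, and 7.36, 6.90 and 7.38 at 3000 Hz. The 2000 Hz arrays lay above all arrays outside 3000 Hz, and the controls spanned only 0.13. The difference was 1.06 ± 0.17 at 2000 Hz (adjusted p = 0.00955) and 0.95 ± 0.17 at 3000 Hz (adjusted p = 0.00972) against control, and 0.69 ± 0.17 at 500 against 250 Hz (adjusted p = 0.0427). Its partner psaB (ArthCp021) had 13.12, 13.16 and 13.11 on the control arrays, 12.42, 12.49 and 13.09 at 250 Hz, 13.11, 13.06 and 13.15 at 500 Hz, 13.19, 13.25 and 13.28 at 1000 Hz, 13.34, 13.33 and 13.44 at 2000 Hz, and 13.34, 13.13 and 13.27 at 3000 Hz. Here 250 Hz replicates 1 and 2 stood below all other arrays, and replicate 3 lay just under the controls. Against control psaB had -0.46 ± 0.12 at 250 Hz (adjusted p = 0.102) and 0.24 ± 0.12 at 2000 Hz (adjusted p = 0.303), and over 250 Hz it rose by 0.70 ± 0.12 at 2000 Hz (adjusted p = 0.0085).

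The gene psaC (ArthCp075), for the protein with the terminal iron-sulphur clusters, had 5.70, 6.26 and 5.62 on the control arrays, 5.55, 5.81 and 5.84 at 250 Hz, 6.55, 6.21 and 6.09 at 500 Hz, 6.08, 7.16 and 6.97 at 1000 Hz, 6.48, 6.92 and 7.16 at 2000 Hz, and 6.79, 6.24 and 6.59 at 3000 Hz. The spread within groups was wide, 0.58 at 1000 Hz (SD, n = 3), and the 2000 Hz arrays lay above all controls. Against control psaC had 0.88 ± 0.26 at 1000 Hz (adjusted p = 0.147) and 0.99 ± 0.26 at 2000 Hz (adjusted p = 0.0501), neither of which passed, and it rose by 1.12 ± 0.26 over 250 Hz (adjusted p = 0.0261).

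The small subunit gene psaI (ArthCp032) had 11.12, 11.39 and 11.08 on the control arrays, 10.54, 10.75 and 10.98 at 250 Hz, 11.14, 11.17 and 11.03 at 500 Hz, 11.27, 11.36 and 11.41 at 1000 Hz, 11.76, 11.98 and 11.75 at 2000 Hz, and 11.40, 11.18 and 11.72 at 3000 Hz. The 2000 Hz arrays were the highest of all, followed by 3000 Hz replicate 3, and the 250 Hz arrays the lowest. It rose by 0.63 ± 0.13 against control (adjusted p = 0.0247), by 1.07 ± 0.13 over 250 Hz (adjusted p = 0.00143) and by 0.72 ± 0.13 over 500 Hz (adjusted p = 0.013). For psaJ (ArthCp042), another small subunit, the signals were 12.66, 12.90 and 12.95 on the control arrays, 12.93, 12.64 and 12.61 at 250 Hz, 12.71, 12.69 and 12.70 at 500 Hz, 12.77, 12.69 and 12.78 at 1000 Hz, 12.60, 12.78 and 12.71 at 2000 Hz, and 12.39, 12.20 and 12.54 at 3000 Hz. The 3 arrays at 3000 Hz were the lowest of the 18, and the other groups overlapped. It was lower at 3000 Hz than in the controls, -0.46 ± 0.10 (adjusted p = 0.0206), and lower than at 250 Hz, -0.35 ± 0.10 (adjusted p = 0.0457), and had -0.32 ± 0.10 against 2000 Hz (adjusted p = 0.109).

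In the cytochrome b6f complex, petD and petG rose at 2000 Hz against control, petB rose over 250 Hz, and petL fell at 3000 Hz. The signals of petB (ArthCp053), for cytochrome b6, were 13.11, 13.08 and 13.21 on the control arrays, 12.62, 12.46 and 12.94 at 250 Hz, 13.08, 13.06 and 13.11 at 500 Hz, 13.25, 13.27 and 13.19 at 1000 Hz, 13.26, 13.33 and 13.35 at 2000 Hz, and 13.16, 13.12 and 13.17 at 3000 Hz. All 3 arrays at 250 Hz lay below the other 15, which spanned 13.06 to 13.35. Its difference was -0.46 ± 0.09 at 250 Hz against control (adjusted p = 0.0738, the smallest of any member in that comparison), and 0.41 ± 0.09, 0.56 ± 0.09 and 0.64 ± 0.09 at 500, 1000 and 2000 Hz over 250 Hz, all of which passed (adjusted p = 0.0292, 0.0242 and 0.00305). For petD (ArthCp054), which encodes subunit IV, the signals were 5.21, 5.30 and 5.25 on the control arrays, 5.14, 5.03 and 5.35 at 250 Hz, 5.60, 5.94 and 5.54 at 500 Hz, 5.69, 5.41 and 5.69 at 1000 Hz, 5.80, 6.14 and 5.78 at 2000 Hz, and 6.09, 5.63 and 5.92 at 3000 Hz. Every array from 500 Hz upwards lay above all controls. It rose by 0.65 ± 0.14 at 2000 Hz (adjusted p = 0.0267) and by 0.63 ± 0.14 at 3000 Hz (adjusted p = 0.0213), and had 0.44 ± 0.14 at 500 Hz (adjusted p = 0.0627) and 0.34 ± 0.14 at 1000 Hz (adjusted p = 0.26).

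The small subunit genes petG and petL lie next to each other in the genome. The signals of petG (ArthCp041) were 5.52, 6.12 and 5.54 on the control arrays, 5.38, 5.78 and 5.70 at 250 Hz, 6.19, 6.44 and 5.85 at 500 Hz, 5.85, 5.78 and 6.03 at 1000 Hz, 6.84, 6.60 and 6.66 at 2000 Hz, and 6.15, 5.68 and 6.19 at 3000 Hz. Only its 2000 Hz arrays lay above all other arrays, and control replicate 2 stood 0.58 above the next control. It rose by 0.97 ± 0.19 at 2000 Hz against control (adjusted p = 0.0188), and had -0.69 ± 0.19 at 3000 against 2000 Hz (adjusted p = 0.055). The signals of petL (ArthCp040) were 9.34, 9.65 and 9.47 on the control arrays, 9.10, 8.91 and 9.36 at 250 Hz, 9.53, 9.47 and 9.36 at 500 Hz, 9.51, 9.32 and 9.33 at 1000 Hz, 9.64, 9.55 and 9.44 at 2000 Hz, and 8.99, 8.57 and 8.95 at 3000 Hz. All 3 arrays at 3000 Hz lay below every control and 2000 Hz array, and their replicate 2 was the lowest of the 18. It was lower at 3000 Hz than in the controls, -0.65 ± 0.13 (adjusted p = 0.015), and lower than at 2000 Hz, -0.71 ± 0.13 (adjusted p = 0.0166). Cytochrome f (petA) and the small subunit gene petN passed in no comparison, with 0.31 ± 0.15 and 0.26 ± 0.18 at 2000 Hz against control.

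In the ATP synthase, the genes of the atpI-atpH-atpF-atpA cluster differed between 2000 and 250 Hz, and atpB and atpE passed in no comparison. The gene atpA (ArthCp007) encodes the alpha subunit of the catalytic head. Its signals were 11.60, 11.95 and 11.69 on the control arrays, 10.77, 11.08 and 11.61 at 250 Hz, 11.74, 11.70 and 11.64 at 500 Hz, 11.51, 11.64 and 11.70 at 1000 Hz, 12.51, 12.57 and 12.64 at 2000 Hz, and 12.47, 12.24 and 12.36 at 3000 Hz. The 3 arrays at 2000 Hz were the highest of the 18, those at 3000 Hz came next, and the 250 Hz replicates ranged over 0.84. The difference was 0.83 ± 0.15 at 2000 Hz (adjusted p = 0.0167) and 0.61 ± 0.15 at 3000 Hz (adjusted p = 0.0309) against control, 0.88 ± 0.15 at 2000 against 500 Hz (adjusted p = 0.00914) and 0.96 ± 0.15 against 1000 Hz (adjusted p = 0.00976). At 250 Hz it had -0.59 ± 0.15 against control (adjusted p = 0.0923).

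The membrane part of the enzyme includes the products of atpF, atpH (the ring subunit) and atpI. The signals of atpF (ArthCp008) were 9.57, 9.97 and 9.94 on the control arrays, 9.0, 8.91 and 9.62 at 250 Hz, 10.04, 9.86 and 9.71 at 500 Hz, 9.91, 9.96 and 9.94 at 1000 Hz, 10.40, 10.40 and 10.25 at 2000 Hz, and 9.99, 9.61 and 9.70 at 3000 Hz. The 2000 Hz arrays were the highest, and the 3000 Hz arrays overlapped the controls. It rose by 1.17 ± 0.16 at 2000 Hz over 250 Hz (adjusted p = 0.00277), had 0.52 ± 0.16 against control (adjusted p = 0.0895), and had -0.58 ± 0.16 at 3000 against 2000 Hz (adjusted p = 0.0663). For atpH (ArthCp009) the signals were 9.0, 9.36 and 8.48 on the control arrays, 7.85, 8.44 and 8.72 at 250 Hz, 9.42, 9.07 and 8.72 at 500 Hz, 9.11, 9.54 and 9.65 at 1000 Hz, 9.74, 9.91 and 10.15 at 2000 Hz, and 9.70, 9.21 and 9.52 at 3000 Hz. The 3 controls spanned 0.88, and the 2000 Hz arrays lay above all of them. It rose by 0.99 ± 0.25 at 2000 Hz against control (adjusted p = 0.0469) and by 1.60 ± 0.25 over 250 Hz (adjusted p = 0.0055). The signals of atpI (ArthCp010) were 6.0, 6.57 and 6.37 on the control arrays, 5.68, 5.90 and 6.24 at 250 Hz, 6.72, 6.5 and 6.11 at 500 Hz, 6.36, 6.30 and 6.5 at 1000 Hz, 7.58, 7.27 and 7.10 at 2000 Hz, and 6.62, 6.49 and 7.10 at 3000 Hz. The 2000 Hz arrays lay above all controls, and 3000 Hz replicate 3 equalled the lowest of them. It rose by 1.00 ± 0.20 at 2000 Hz against control (adjusted p = 0.0212) and by 1.38 ± 0.20 over 250 Hz (adjusted p = 0.00361).

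The beta and epsilon subunit genes, atpB and atpE, showed little spread. The signals of atpE (ArthCp028) were 14.11, 14.15 and 14.14 on the control arrays, 13.95, 13.96 and 14.14 at 250 Hz, 14.15, 14.01 and 14.05 at 500 Hz, 14.20, 14.15 and 14.16 at 1000 Hz, 14.05, 14.11 and 14.08 at 2000 Hz, and 14.09, 14.06 and 14.19 at 3000 Hz. All 18 lay between 13.95 and 14.20, and among the groups compared only the 1000 Hz arrays stood clear of others: they lay above those of 250 and of 2000 Hz. At 2000 Hz against control the difference was -0.05 ± 0.06 (adjusted p = 0.691), and 0.02 ± 0.08 for atpB (adjusted p = 0.924). The signals of atpB (ArthCp029) were 13.97, 14.05 and 14.11 on the control arrays, 13.70, 13.80 and 14.11 at 250 Hz, 14.02, 13.94 and 13.97 at 500 Hz, 14.11, 14.13 and 14.05 at 1000 Hz, 14.03, 14.07 and 14.09 at 2000 Hz, and 14.04, 14.01 and 14.13 at 3000 Hz, with 250 Hz replicates 1 and 2 the lowest.

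For rbcL (ArthCp030) the log2 signals were 10.72, 11.34 and 10.39 on the control arrays, 10.02, 10.28 and 10.86 at 250 Hz, 10.93, 10.79 and 10.70 at 500 Hz, 11.14, 10.99 and 11.04 at 1000 Hz, 11.19, 11.56 and 11.05 at 2000 Hz, and 11.16, 11.01 and 11.44 at 3000 Hz. The controls spanned 0.95, more than any difference from them, and their replicate 2 was above all but 2 of the sound arrays. The difference from control was 0.45 ± 0.22 at 2000 Hz (adjusted p = 0.282) and 0.39 ± 0.22 at 3000 Hz (adjusted p = 0.315), and neither passed. Over 250 Hz it rose by 0.88 ± 0.22 at 2000 Hz (adjusted p = 0.04) and by 0.82 ± 0.22 at 3000 Hz (adjusted p = 0.0349).

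**Figure D4:**
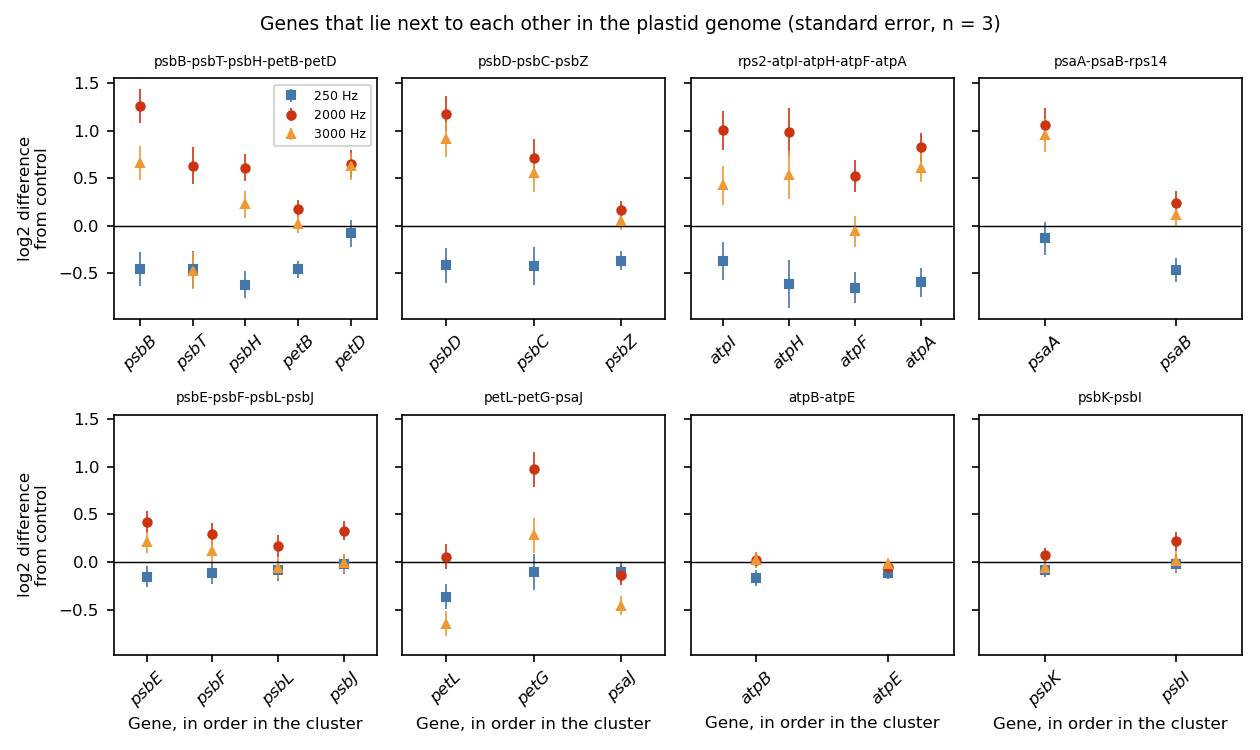
Log2 difference from control at 250, 2000 and 3000 Hz for member genes that lie next to each other in the plastid genome, 1 panel per cluster, genes in their order along it. Bars are standard errors from the fit of all 18 arrays (n = 3 per group). In the rps2-atpI-atpH-atpF-atpA panel the 2000 Hz points lie at 0.52 to 1.00, and in the atpB-atpE panel all points lie between -0.17 and 0.02. The 3 differences of a gene share the same control arrays.

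In 4 clusters of neighbouring genes every member rose at 2000 over 250 Hz, 14 of the 21 members that did. These clusters were picked by that outcome, so the count does not tell whether the rises gather in clusters. Among members with no other member in their cluster, psaC, psbA and rbcL also rose, while petN and psbM did not. All 4 members of the cluster rps2-atpI-atpH-atpF-atpA rose at 2000 over 250 Hz, by 1.17 to 1.60. All 5 of psbB-psbT-psbH-petB-petD did so, by 0.64 to 1.71, as did psbN, which lies between them on the opposite strand. Whether the psbN probe set also reads RNA of the other strand was not tested. All 3 of psbD-psbC-psbZ rose, by 0.53 to 1.60 (the reading frames of psbD and psbC overlap). Both psaA and psaB rose. In psbE-psbF-psbL-psbJ only 1 of 4 passed (0.26 to 0.57), and in petL-petG-psaJ 1 of 3 (-0.03 to 1.08). In psaI-ycf4-cemA-petA 1 of 2 members passed (0.42 to 1.07), and in atpB-atpE (0.06 to 0.19) and psbK-psbI (0.16 to 0.24) none of 2. At 3000 against 2000 Hz, psbT fell (-1.10) while its neighbours psbB, psbH, petB and petD had -0.60, -0.39, -0.16 and -0.03, none of which passed.

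At 2000 Hz, members with a lower signal had the larger differences. Across the 33 members, Spearman's rho between the mean signal and the log2 difference was -0.688 at 2000 Hz against control and -0.624 at 2000 against 250 Hz, but 0.139 at 250 Hz against control. The genes are not independent replicates, since they share arrays and clusters. Of the 9 members with a mean signal of 12 or more, 0 rose at 2000 Hz against control, with a median difference of 0.07, whereas of the 9 with a mean under 8, 6 rose, with a median of 0.99. Over 250 Hz these counts were 2 and 8, with medians of 0.19 and 1.12. Among all probe sets of any signal, 1.62% rose at 2000 Hz against control and 2.1% over 250 Hz. Neither these nor the other plastid genes were divided by signal, so whether the pattern is particular to the members was not tested. The brightest members, atpB and atpE, averaged 14.02 and 14.10, while the highest signal on any array was 14.53 to 14.71. Signals of different probe sets do not rank their transcripts, and the part of signal compression near the top of the range was not tested.

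**Figure D5:**
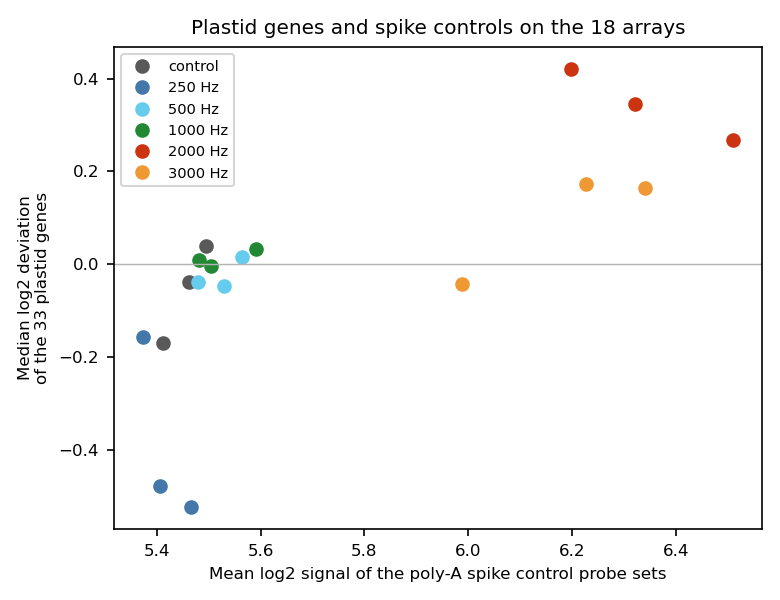
Median log2 deviation of the 33 plastid genes from their means over all arrays (vertical axis) against the mean log2 signal of the 24 poly-A spike probe sets (horizontal axis), 1 point per array, coloured by group. The 6 arrays of 2000 and 3000 Hz lie at spike means of 5.987 and above, and within them the 2000 Hz arrays have the highest plastid medians (0.267 to 0.421), while 250 Hz replicates 1 and 2 have the lowest of all arrays (-0.478 and -0.524).

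Few nuclear genes for the same complexes could be measured. Of 50 listed nuclear genes for photosystem subunits, light harvesting, cytochrome b6f, ATP synthase and Rubisco, 10 had a probe set of their own that could be named. None of the 10 differed from control at any frequency in limma, and their median difference at 2000 Hz was 0.15, with 7 of 10 positive. ATPC1, the gamma subunit of the chloroplast ATP synthase, had 13.45, 13.42 and 13.33 at 2000 Hz against 12.98, 13.21 and 13.17 at 250 Hz. These arrays did not overlap, and ATPC1 rose by 0.28 ± 0.07 over 250 Hz (adjusted p = 0.0376). PSBY, a small photosystem II protein, had 13.55, 13.42 and 13.64 at 2000 Hz against 13.30, 13.24 and 13.21 at 1000 Hz, and rose by 0.29 ± 0.08 (adjusted p = 0.0494). PSBY (adjusted p = 0.0408) and LHCB4.2, an antenna protein of photosystem II (adjusted p = 0.0423), differed among the 5 frequencies. The LHCB4.2 signals at 3000 Hz were 13.51, 13.44 and 12.39, so its replicate 3 lay far below the others.

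Of 34 listed nuclear genes for plastid transcription and RNA processing, 2 were measured. LPA66, a factor needed for editing of the psbF transcript, had 7.06, 6.78 and 6.95 at 500 Hz against 7.81, 7.23 and 7.27 in the controls. The groups did not overlap, and LPA66 was lower at 500 Hz, with a difference of -0.51 ± 0.13 (adjusted p = 0.0307), while psbF itself had 0.03 ± 0.12 there (adjusted p = 0.903). The polymerase gene RPOTMP ranged from 5.53 to 6.21 and passed in no comparison. Among the cell type markers, FAMA was lower at 500 Hz (-0.63 ± 0.17, adjusted p = 0.0321) and at 3000 Hz (-0.72 ± 0.17, adjusted p = 0.0229) than in the controls. Its signals were 7.38, 7.60 and 7.09 on the control arrays, 7.61, 7.18 and 7.26 at 250 Hz, and 6.86, 6.87 and 6.45 at 500 Hz. They were 6.75, 6.69 and 6.85 at 1000 Hz, 6.70, 7.30 and 6.94 at 2000 Hz, and 6.57, 6.67 and 6.67 at 3000 Hz. The 1000 Hz arrays also lay below every control. Against control FAMA had -0.59 ± 0.17 at 1000 Hz (adjusted p = 0.137) and -0.38 ± 0.17 at 2000 Hz (adjusted p = 0.225), and neither passed in limma. It was also lower at 3000 than at 250 Hz (-0.71 ± 0.17, adjusted p = 0.018), and differed among the 5 frequencies (F test, adjusted p = 0.0368).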

How the data were processed

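Total RNA of 18 rosette samples was biotin-labelled and hybridised, 1 array per sample. The authors deposited log2 values, 1 per probe set and array. The submitters' processing notes name Affymetrix Expression Console 1.1, RMA and MAS5, without telling which of them produced the values. Array medians ranged from 6.51 to 6.63, and the values were used as deposited. Of 22810 probe sets, 64 Affymetrix controls were set aside. By the platform's annotation and RefSeq, 13513 of the rest have 1 gene, 503 several and 8730 no gene that could be named here. A genome build is not given in the sources used here, so coordinates are left out.

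The 18 arrays entered 1 limma fit (version 3.58.1, R 4.3.3), with an intensity trend in eBayes, and the scripts were tested on simulated data. The 5 frequencies were compared with the control, 7 pairs of frequencies with each other, and all 5 by a moderated F test. P values were two-sided, with Benjamini-Hochberg adjustment over 22746 probe sets. Errors after ± are standard errors of the limma fit unless SD is given. They rest on each gene's spread within groups over all 18 arrays, moderated by limma, and not on the arrays compared alone. Each group has n = 3 arrays, and this number limits the precision. Alternatives were centring or quantile normalization, no intensity trend, no dim probe sets, the replicate number as a block, fewer groups in the fit, and leaving out each array. Replicate numbers were not used as pairs in the main fit. Of 45 same-numbered pairs of arrays, 12 had deviations correlated above 0.1 (range -0.325 to 0.351). Pairs with different numbers were not set beside them, so these values cannot tell whether the samples were paired. No pair of arrays shared over 2.81% of its values.

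The members, gene lists, marker lists and pairs of frequencies were chosen with earlier results of these data known. Per-array values are given for the members with the smallest p of each complex in each comparison, and for psbA, atpB and atpI in addition. For list genes that passed they are given in some of the groups.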

Additional observations from a re-analysis of the deposited data

Results flagged for a closer look

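Plastid photosynthesis genes differed between frequencies in direct tests. Across all 5 frequencies 22 of 33 members differed in limma's F test, against 15.6% of all probe sets and 22 of 36 other plastid genes. At 2000 against 250 Hz 21 members differed (3.87% of all probe sets, 22 other plastid genes), and at 3000 against 250 Hz 17 (8.77%, 22 others). At 500 against 250 Hz 7 differed (3.4%, 1 other) and at 1000 against 250 Hz 2 (0.242%, 1 other). At 2000 Hz, 5 differed from 500 Hz (3.66%, 7 others) and 10 from 1000 Hz (3.17%, 5 others). At 3000 against 2000 Hz 2 differed (3.17%, 0 others). Of these, 500 and 1000 against 250 Hz and 3000 against 2000 Hz compare arrays of the same spike set, and in the others frequency and spike set cannot be told apart. With 3 arrays in a group, single arrays were not tested as outliers.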

How the results depend on the processing

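Over the 83 calls of members in 9 pairwise comparisons, 992 refits kept 720 calls, lost 272 and reversed 0. The number of members called was taken with each array of the groups compared left out in turn. Against control it ranged from 0 to 6 at 250 Hz, 0 to 5 at 500 Hz and 0 to 3 at 1000 Hz. It was 4 to 16 at 2000 Hz and 0 to 10 at 3000 Hz. It ranged from 0 to 12 at 500 and at 1000 against 250 Hz, 9 to 20 at 3000 and 11 to 25 at 2000 against 250 Hz, 1 to 5 at 2000 against 500 Hz, 0 to 9 at 2000 against 1000 Hz, 0 to 2 at 3000 against 2000 Hz, and 18 to 24 across the frequencies. Shares of all probe sets in the refits without an array are not given here, and the cause of these shifts was not tested. Fitting only the 6 arrays compared, which leaves fewer samples to estimate the spread, gave 0 at 2000 Hz and 0 at 3000 Hz against control and 2 at 500 against 250 Hz, and a fit of control, 250, 500 and 1000 Hz alone gave 1 at 500 and 0 at 1000 against 250 Hz. Leaving out dim probe sets tests fewer genes and keeps 29 members, without psaC, petD, petG and atpI. In that setting 2 members passed at 500 Hz against control, 8 at 1000 against 250 Hz, 11 at 2000 against 500 Hz and 4 at 3000 against 2000 Hz. Centring gave 2 at 500 Hz against control, and quantile normalization and no intensity trend each 4 at 1000 against 250 Hz. With the replicate block 8 members passed at 2000 against 500 Hz, 7 calls missed the threshold (atpH at 2000 Hz against control, psaA at 500, psbN and rbcL at 2000 and psaJ and atpF at 3000 against 250 Hz, and psbD at 2000 against 1000 Hz), and every other count stayed within 1.5 times of the reported one. All other counts also did so, and the 22 across the frequencies did under every setting run. Signal above background is not given in the sources used here, so which dim members were detected is not known.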
